A study of Mus musculus with 27 samples.

Results

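The suprabasal cells described here were keratinocytes of mouse back skin that carried keratins of differentiating epidermis and of the infundibulum, the funnel at the top of the hair follicle. Members were chosen by their own UMI counts, where a UMI is 1 counted RNA molecule, in 2 single cell libraries of AnaVI skin (postnatal day 32), each from a different wild-type mouse. A cell was taken when it had at least 500 genes, at least 1000 UMIs and under 10% mitochondrial UMIs, when Krt1, Krt10, Krt77 and Krtdap together took at least 0.2% of its UMIs, and when the fibroblast genes Col1a1, Col1a2, Col3a1 and Dcn took under 0.5%. Of 28373 cells that passed the first filters, 160 were members. Mouse 1 gave 83 of 14458 cells (0.574%, exact 95% binomial interval 0.458 to 0.711) and mouse 2 gave 77 of 13915 (0.553%, 0.437 to 0.691), where intervals cover counting error only.

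The study examined how vitamin A steers the lineage choices of hair follicle stem cells (HFSCs). Skin cells had been enriched by flow cytometry as CD45-CD31-CD140a-CD117- cells, a gate set to remove immune, endothelial, fibroblast and melanocyte cells. Cultures of HFSCs from both animals were profiled as single cells in 7 hashtagged conditions, and 8 bulk RNA-seq libraries came from telogen HFSCs (postnatal day 55) of 2 wild-type and 2 Rxra cKO mice, grown in FBS or in atRA+PKCi from lines started on feeder cells. Rxra cKO cells carried Sox9-CreER, floxed Rxra and a Rosa26-YFP reporter, so that the deletion was limited to cells with an active Sox9 promoter. The atRA+PKCi medium, with all-trans retinoic acid and a protein kinase C inhibitor, also had a serum-free supplement in place of serum, so the additives and the loss of serum cannot be told apart.

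The epidermis is renewed from a basal layer that holds keratins 5 and 14 and sits on a basement membrane. Cells that leave it exchange these for keratins 1 and 10, pass through the spinous and granular layers, and end as the cornified envelopes that seal the skin. The infundibulum continues this sheet into the follicle, and its inner cells are known for keratin 79, which lines the canal that a growing hair opens. Krtdap encodes a secreted peptide of stratifying epidermis, Krt77 a keratin of suprabasal and duct cells, Cst6 an inhibitor of cysteine proteases that restrains cornification, and Defb6 an antimicrobial defensin.

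Of the 4 genes used for the choice, all were found in 47 of 83 members in mouse 1 and in 41 of 77 in mouse 2. Another 26 members in each mouse held 3 of them, and 1 and 3 members rested on a single gene. Just inside the limit, with 0.2% to 0.3% of UMIs in these genes, stood 13 and 12 cells, and just outside, with 0.1% to 0.2%, stood 27 and 15. Members had a median of 8013 UMIs in mouse 1 and 12326 in mouse 2, against 8869 and 10594 over all cells. No cell barcode was shared between the members of both mice, although 46 barcodes were shared among all filtered cells.

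Krt79 and Defb6, 2 of the 3 markers that the choice did not use, divided the members. Krt79 was found in 44 of 83 members in mouse 1 and in 32 of 77 in mouse 2, and Defb6 in 40 and 34. In 35 and 42 members neither gene had a UMI, a further 8 and 5 held a trace under 0.1%, and none in either mouse lay between 0.1% and 0.2% of UMIs. Above that gap stood 40 members in mouse 1 and 30 in mouse 2, of which 15 and 16 had 1% to 2% of their UMIs in these 2 genes, and 9 and 4 had more. Members were therefore split there into 2 groups, called Krt79/Defb6-high and, for the other 43 and 47 cells, Krt79/Defb6-low. The low group was a remainder and was not uniform. Some of its cells had no UMI of Krt1 or Krt10. Those cells held up to 1.08% of UMIs in the keratin Krt17 in mouse 1 and up to 1.34% in mouse 2. Of the cells just inside the keratin limit, 10 of 13 and 8 of 12 were Krt79/Defb6-high, and of those just outside, 24 of 27 and 9 of 15. Most cells on either side of the limit were therefore of the high group, and the class size moved with the limit, from 110 and 92 cells at 0.1% to 59 and 53 at 0.5%.

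**Figure D1:**
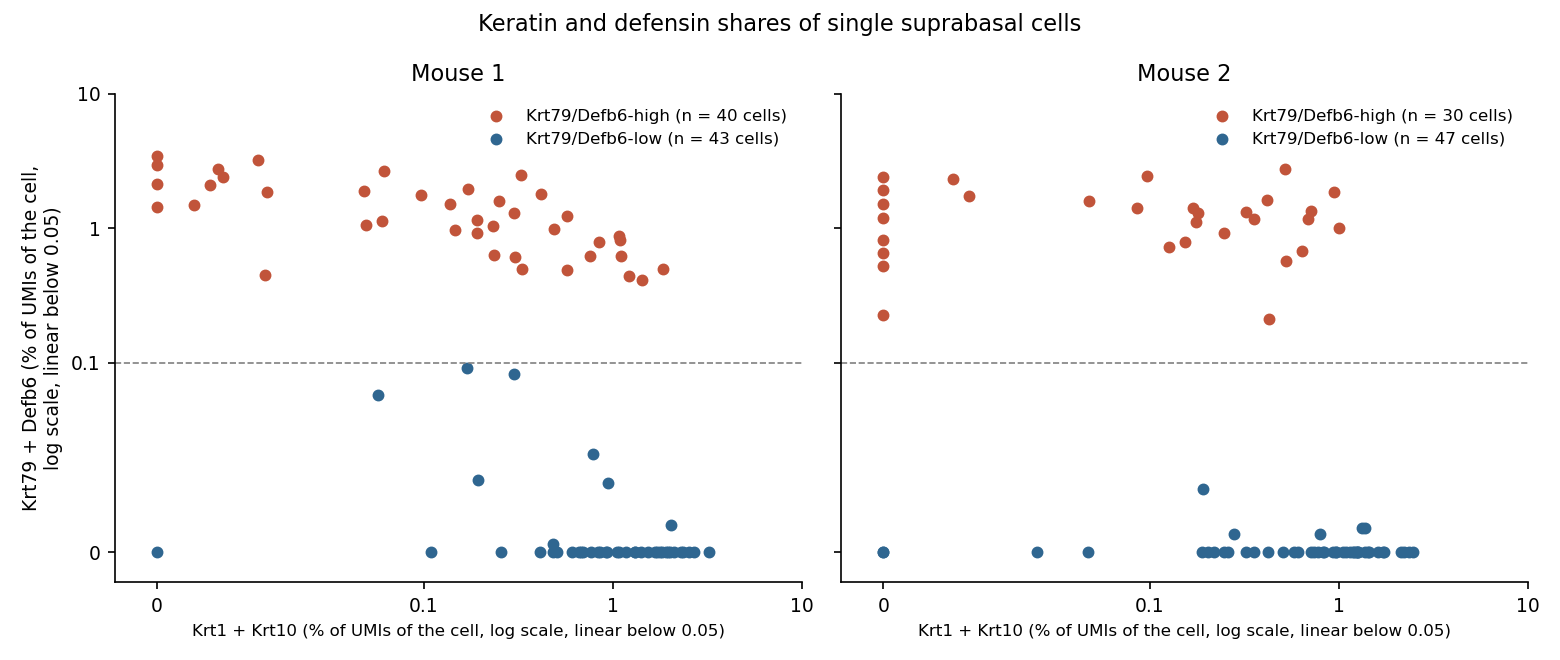
Each point is 1 suprabasal cell, with the share of its UMIs in Krt1 and Krt10 on the x axis and in Krt79 and Defb6 on the y axis (percent, log scales that are linear below 0.05), for each mouse. The 40 and 30 cells above the dashed line at 0.1% stand apart from the 43 and 47 cells below it, and many of the former have little Krt1 or Krt10.

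Other cell types were checked with lists of 1 to 9 markers. Members at or over 0.5% of UMIs in a list numbered 1 of 83 in mouse 1, a Krt79/Defb6-high cell with 40.3% of its UMIs in haemoglobin genes, and 1 of 77 in mouse 2, a Krt79/Defb6-low cell with 1.65% in inner root sheath genes. Immune genes took 0.00198% and 0.0033% of the members' UMIs, with Cd3e, Cd3g and Cd207 at 0 in both mice, and melanocyte genes took 0.00423% and 0.00481%. Sebaceous genes took 0.0143% and 0.0181%, with Awat1 and Elovl3 at 0. Collagen Col1a1 stood at 443 and 803 CPM (UMIs scaled to a common total) in the members, against 449 and 813 in the Krt15-high and 458 and 774 in the Krt5/Krt14-high keratinocytes described next. Col1a1 thus differed more between mice than between classes. All of these classes were held under 0.5% of UMIs in the fibroblast genes, Col1a1 among them, so their likeness was set in part by the choice. Cells with at least 2% of UMIs in the fibroblast genes numbered 5859 and 5986 despite the CD140a- gate, and are used below as a comparison class. Scrublet marked 1 member of mouse 1 and none of mouse 2 as a doublet.

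Members were compared with 2 other keratinocyte classes of the same mice. Krt15-high cells (302 and 161) held at least 0.5% of UMIs in Krt15, a keratin of bulge stem cells and of basal cells. Krt5/Krt14-high cells (139 and 89) held at least 1% in the basal keratins Krt5 and Krt14 together but less Krt15. UMIs were summed per class and mouse and written as CPM, so that 2 values per class, 1 per mouse, stand behind each comparison. Classes were drawn from the same cells in which other genes were then tested, so that an adjusted p measures how well a difference repeats over 2 mice. Calls needed an edgeR adjusted p under 0.01 and a change beyond 1 on the log2 scale in either direction.

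Promoter sequences are shown for Krt10 and Krtdap, which chose the class, and for Krt79 and Defb6, which divided it. Krt79 (chr15:101929332-101940324), Krt77 (chr15:101858731-101869705) and Krt1 (chr15:101845426-101850794) lie on the minus strand of the keratin cluster of chromosome 15 in GRCm38, and Krt10 in the other keratin cluster (chr11:99385254-99389364, minus strand). Krtdap (chr7:30787896-30791097) and Defb6 (chr8:19225478-19228209) are on the plus strand, and Cst6 (chr19:5344705-5349574) is on the minus strand. Sequences run from 250 bases before to 50 after the start of each gene (RefSeq, GRCm38.p6), in the direction of transcription. Capitals mark matches, on either strand, to a TATA box (TATAAA), an AP-1 site (TGANTCA) or a KLF site (CCACNCCC), which 13.6%, 7.81% and 17.6% of 32851 mouse promoters of this length hold. A SOX motif (ACAANG, in 41.2%) and a nuclear receptor half-site (AGGTCA, in 16.3%) were searched as well and had no match in these windows.
Krt10, chr11:99389315-99389614: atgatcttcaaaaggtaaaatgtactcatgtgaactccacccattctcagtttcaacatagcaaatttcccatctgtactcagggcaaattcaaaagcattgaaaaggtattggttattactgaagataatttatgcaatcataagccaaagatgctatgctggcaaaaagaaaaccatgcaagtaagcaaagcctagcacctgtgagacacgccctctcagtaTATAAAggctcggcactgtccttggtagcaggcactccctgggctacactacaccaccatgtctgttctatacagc
Krtdap, chr7:30787655-30787954: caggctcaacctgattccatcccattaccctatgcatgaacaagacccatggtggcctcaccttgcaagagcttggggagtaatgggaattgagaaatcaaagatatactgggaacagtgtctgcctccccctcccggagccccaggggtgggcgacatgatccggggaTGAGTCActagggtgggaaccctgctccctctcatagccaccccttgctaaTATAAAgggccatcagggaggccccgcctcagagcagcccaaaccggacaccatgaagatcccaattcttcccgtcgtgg
Krt79, chr15:101940275-101940574: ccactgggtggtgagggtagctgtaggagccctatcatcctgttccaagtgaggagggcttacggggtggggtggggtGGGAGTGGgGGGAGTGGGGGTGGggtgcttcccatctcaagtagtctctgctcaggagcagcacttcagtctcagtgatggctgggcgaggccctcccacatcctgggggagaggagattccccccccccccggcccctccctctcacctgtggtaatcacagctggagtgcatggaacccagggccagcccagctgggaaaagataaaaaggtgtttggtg
Defb6, chr8:19225228-19225527: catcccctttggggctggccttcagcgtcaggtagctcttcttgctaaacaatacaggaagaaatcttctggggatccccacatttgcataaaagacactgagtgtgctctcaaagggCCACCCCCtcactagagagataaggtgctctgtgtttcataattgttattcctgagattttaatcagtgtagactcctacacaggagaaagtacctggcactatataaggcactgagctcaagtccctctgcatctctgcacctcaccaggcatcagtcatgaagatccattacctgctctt
Krt10 held a TATA box 26 bases before its start, and Krtdap a TATA box at 30 and an AP-1 match at 81 bases. The Krt79 window held 3 KLF matches, 2 of them overlapping, on the opposite strand, between 157 and 172 bases before the start, and that of Defb6 held 1 at 132. The window of Krt77 (chr15:101869656-101869955) held none of the 5 motifs. These are matches of letters and do not show binding.

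Within the class, Krt79/Defb6-high cells differed from Krt79/Defb6-low cells in keratins, proteases and transcription factors, as seen in the plot of levels by class. They held more Cst6, Krt17, Sox9, Gata6, Foxc1 and Klk7, and less Krt5, Krt15, Col17a1, Mt4 and Sox6. Of 9380 genes tested, outside the genes that made the split, 150 were higher (1.6%) and 65 lower (0.693%) in Krt79/Defb6-high cells. With the mouse as a replicate block, 227 were higher and 131 lower. When the choosing genes had to take 1% of UMIs, only 11 and 10 high cells were left, and 23 genes were higher and 13 lower. Of the genes named here, 29 then lost their call and Plet1 (log2 fold change -6.48, adjusted p = 0.347) and Cstb (-0.36, adjusted p = 0.67) changed sign. Tcf7l1 then had a log2 fold change of 0.21 (adjusted p = 0.954), Gata6 1.46 (0.772), Ctsd 0.86 (0.153), Dsc1 1.14 (0.374), Sprr1a 1.31 (0.293) and Crabp2 1.75 (0.401), and Lrat had no UMI left in either group. Leaving out 1 mouse of the high or low cells gave 44 to 104 higher and 14 to 45 lower genes. Of the 45 called genes named in this comparison, 31 lost their call when 1 of the libraries in the fit was left out (adjusted p = 0.0101 to 0.119) and none changed sign. They included Calml3, Col17a1, Crabp2, Cxcl14, Dsc1, Dst, Flg2, Gadl1, Gata3, Gata6, Gm12068, Gsdma3, Inhbb, Itga6, Itgb4, Ivl, Klk5, Klk8, Krt15, Krt16, Lbhd2, Lrat, Lrig1, Maf, Ocln, Serpinb2, Sox6, Sprr1a, Tcf7l1 and Tesc, and the library most often behind a loss was mouse 1 of the high cells. The other 14, among them Cst6, Krt17, Sox9, Foxc1, Klk7, Krt5 and Mt4, kept it. The fold change moved by over 1.5 times without 1 library for 16 of the 45, among them Gata6 (log2 fold change 4.14 to 10.01), Foxc1 (5.33 to 9.92), Klk7 (3.75 to 7.11), Mt4 (-11.87 to -5.40), Tesc (-9.79 to -5.07) and Gadl1 (-10.47 to -3.27). The far ends for Gata6, Gadl1 and Tesc, which had 1 UMI in the high cells, come from fits with 0 UMIs left in a group and depend on the prior count. Those for Foxc1, with 2 UMIs in the low cells, and Mt4, with 3 in the high cells, rest on few UMIs as well and are no measure of size. Of 12167 genes with enough UMIs to rank, 20.9% lay above and 23.7% below in both mice without overlap, so such an order on its own sets no gene apart.

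The keratins and defensin that made the split are given as a description only. Krt79 stood at 8839 and 8252 CPM in the Krt79/Defb6-high cells of mice 1 and 2 and at 43.1 and 2.8 in the low cells, and Defb6 at 4974 and 4997 against 20.4 and 5.61. Of the 4 genes that chose the class, Krt1 stood at 286 and 109 CPM in high and 4079 and 3395 in low cells, and Krt10 at 3604 and 2729 against 8724 and 6993. Krt77 reached 2365 and 1750.0 against 3669 and 2207 CPM, and Krtdap 3201 and 3416 against 4895 and 4630.1. High and low cells thus overlapped in Krt77 and not in the other 3, of which Krt1 showed the widest gap. Krt1 was found in 12 of 40 and 6 of 30 high cells, but in 41 of 43 and 44 of 47 low cells.

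**Figure D2:**
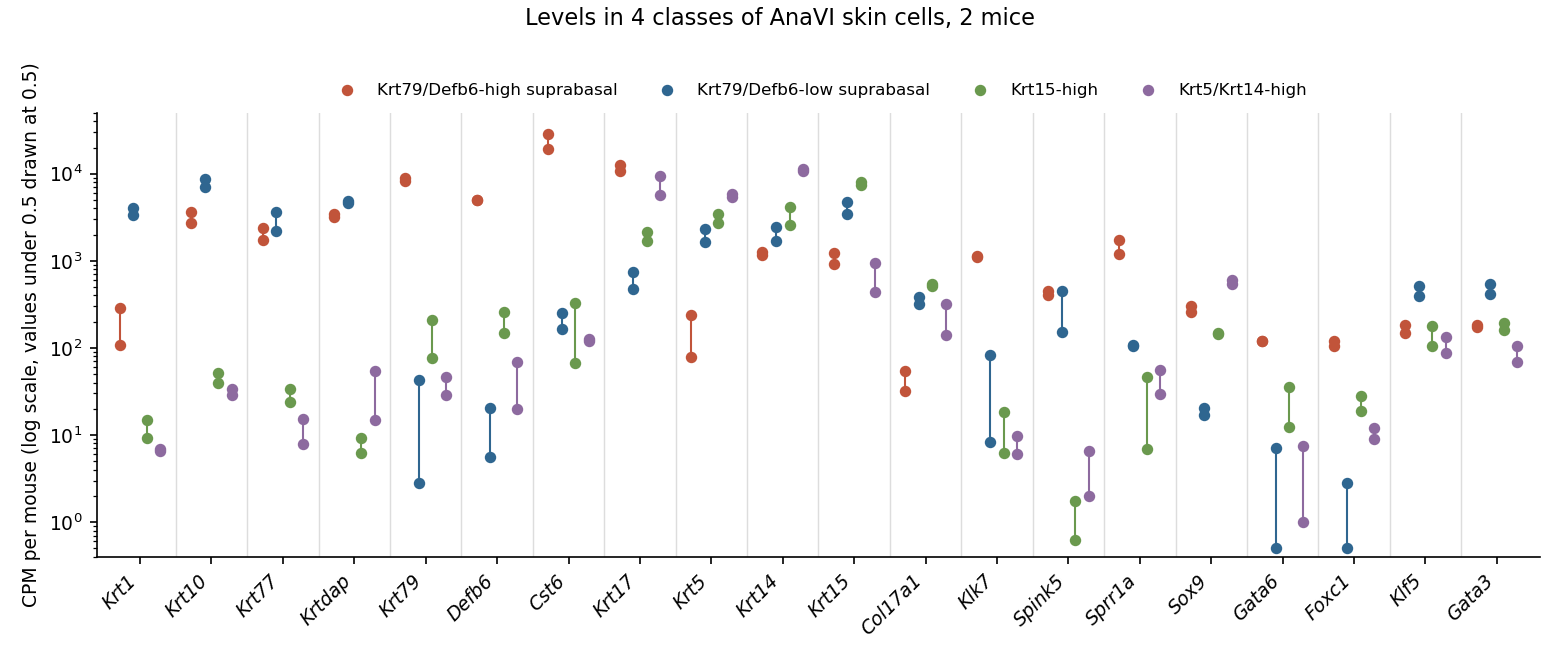
CPM (log scale) of 20 genes in 4 classes of keratinocytes, with 1 point per mouse and a line joining both mice; values under 0.5 are drawn at 0.5. The Krt79/Defb6-high cells lie above the low cells in Krt79, Defb6, Cst6, Krt17, Klk7, Sprr1a, Sox9, Gata6 and Foxc1 and below them in Krt1, Krt5, Krt15, Col17a1, Klf5 and Gata3.

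Genes of the upper follicle were higher in Krt79/Defb6-high cells. All 5 of the list's 8 genes that were tested rose, with a median log2 fold change of 4.27 against -0.02 over all genes; Krt79 and Defb6 were left out and Klk10 had too few UMIs. Cst6 stood at 28463 and 19008 CPM in high and 249 and 164 CPM in low cells (log2 fold change 6.88, SE 0.60, adjusted p = 2.86e-05), a 118-fold difference. Cst6 alone made up to 14.1% of the UMIs of a cell. Krt17, a keratin of follicles and stressed epidermis, stood at 12447 and 10773 against 746 and 481 CPM (log2 fold change 4.27, SE 0.29, adjusted p = 3.61e-06). Both mice lay more than an order of magnitude apart between groups for both genes. Gata6, a transcription factor of the upper follicle and sebaceous duct, stood at 121 and 121 against 0 and 7.01 CPM (27.9-fold, adjusted p = 0.00197). Plet1, a surface protein of the follicle junction, and Lrig1, a brake on growth factor receptors that marks junctional zone stem cells, were 11.9-fold (adjusted p = 0.000137) and 4.72-fold (adjusted p = 0.000747) higher.

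Some hair follicle transcription factors were higher in the same cells. Of 10 tested, 4 rose in Krt79/Defb6-high cells, none fell and 6 were not called. Sox9, the factor that specifies HFSCs, stood at 261 and 302 CPM in high and 20.4 and 16.8 CPM in low cells (log2 fold change 3.96, SE 0.27, adjusted p = 3.61e-06). By level in CPM, the high cells lay below Krt5/Krt14-high cells (608 and 536) and above Krt15-high cells (149 and 144). Foxc1, which keeps HFSCs quiescent, had 75 UMIs in the high and 2 in the low cells, a ratio of 65.4-fold (exact 95% counting interval 17.5 to 550.1). Barx2, a homeobox factor, stood at 311 and 400.1 against 74.8 and 91.1 CPM (4.31-fold, adjusted p = 8.01e-05). Tcf7l1, a repressor of Wnt targets in the bulge, stood at 57.2 and 69.1 against 9.06 and 18.2 (4.39-fold, adjusted p = 0.00402). Lhx2, another bulge factor, was not called, at 19.1 and 5.76 CPM in high and 24.9 and 8.41 CPM in low cells.

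Factors of epidermal differentiation mostly did not pass the test. Of 17 tested, 15 were not called, none rose and 2 fell in Krt79/Defb6-high cells. Gata3, a factor of stratification and lipid synthesis, fell from 412 and 537 CPM in low to 175 and 181 CPM in high cells (log2 fold change -1.40, SE 0.24, adjusted p = 0.00348), and Maf, an activator of late differentiation genes, fell 3.31-fold (adjusted p = 0.00608). Klf5, a factor of epidermal progenitors, stood at 181 and 149.7 in high and 392 and 509 CPM in low cells and just missed the threshold (log2 fold change -1.43, SE 0.29, adjusted p = 0.012), which it passed with the replicate block (log2 fold change -1.41, adjusted p = 0.000845). Klf4, a driver of barrier formation, stood at 788 and 576 CPM in high and 562 and 488 CPM in low cells (adjusted p = 0.372), without overlap of the mice but with a small gap.

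Of 20 granular and cornified genes, 10 were tested, of which 4 rose, 1 fell and 5 were not called. The kallikreins Klk7, at 1112 and 1148 against 83.8 and 8.41 CPM (log2 fold change 4.81, SE 0.58, adjusted p = 0.000337), and Klk5, at 168 and 138 against 43.1 and 29.4 CPM (4.42-fold, adjusted p = 0.00131), are serine proteases that cut the links between cornified cells. Sprr1a, a small proline-rich envelope protein, stood at 1732 and 1183 against 109 and 105 CPM (13.9-fold, adjusted p = 0.000835), and Ivl, which encodes involucrin, at 156 and 118 against 31.7 and 19.6 (5.62-fold, adjusted p = 0.00102). All 4 were higher in high cells of both mice. Reads of Sprr1a can be split with near-identical copies, so its level is uncertain. Flg2, a filaggrin-like protein of granular cells, ran the other way, with 0 UMIs in high cells and 31.7 and 50.4 CPM in low cells, at least 9.55-fold lower (adjusted p = 0.00973). The genes of fully granular cells were scarce throughout, with loricrin (Lor) at 6.36 and 0 CPM in high and 11.3 and 14 CPM in low cells, and Rptn, Lce1b and Lce1m at 0 in both.

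Among 12 spinous genes, 11 were tested and 8 were not called. Dsc1, a desmosomal cadherin of upper layers, was 4.37-fold higher (adjusted p = 0.0022) in Krt79/Defb6-high cells, and Calml3, a calmodulin-like protein, 8.26-fold (adjusted p = 0.00285). Mt4, a metallothionein of stratified squamous epithelium, had 3 UMIs in the high cells and 466 in the low, a ratio of 89-fold (exact 95% counting interval 30.3 to 433). Sbsn, which encodes suprabasin, was not called, at 3566 and 2723 CPM in high and 2606 and 1642 CPM in low cells (adjusted p = 0.392). None of 10 barrier lipid genes was called, such as the lipid transporter Abca12, at 229 and 196 CPM in high and 190.3 and 210.2 CPM in low cells, and the ceramidase Acer1, at 133 and 132 CPM in high and 136 and 116 CPM in low cells. The list's median log2 fold change was 0.10. None of 11 desmosome genes or 9 Notch pathway genes was called either, with medians of -0.15 and 0.06.

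Basal genes were lower in Krt79/Defb6-high cells. Of 13 tested, 6 fell, none rose and 7 were not called, with a median log2 fold change of -1.70. Some low cells held over 1% of UMIs in Krt5 and Krt14 together, the limit that chose Krt5/Krt14-high cells. They reached 2.10% in mouse 1 and 2.51% in mouse 2, while high cells held at most 0.876% and 0.713%. The part of such low cells in these differences was not tested. Krt5 stood at 79.5 and 239 CPM in high and 1634 and 2344 CPM in low cells (log2 fold change -3.62, SE 0.34, adjusted p = 4.42e-05), and Krt15 at 1221 and 921 against 3474 and 4697 CPM (3.74-fold lower, adjusted p = 0.00171). Col17a1, the collagen that anchors basal cells, stood at 31.8 and 54.7 against 319.5 and 388 CPM (8.02-fold, adjusted p = 0.000586). The low cells lay between Krt15-high and Krt5/Krt14-high cells in both genes, and the high cells lay below both classes in Col17a1. Krt15 helped to choose both of these classes, so the place of the low cells in Krt15 was set in part by that choice. Itga6, Itgb4 and Dst, parts of the hemidesmosome, were 3.26-fold, 5.39-fold and 2.27-fold lower (adjusted p = 0.00366, 0.00978 and 0.00897). Krt14, the partner of Krt5, differed less, at 1169.7 and 1264 against 1690.5 and 2466 CPM (log2 fold change -0.75, SE 0.22, adjusted p = 0.0643).

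Proteases beyond the cornified list also differed, with 3 of 10 higher and 1 lower. Klk8, another kallikrein, stood at 254 and 279 CPM in high and 77 and 44.8 CPM in low cells (4.6-fold, adjusted p = 0.00171), cathepsin D (Ctsd) at 702 and 558 against 107 and 136 (5.25-fold, adjusted p = 5.82e-05) and Cstb, an inhibitor of cathepsins, at 1055 and 1079 against 249 and 248 (4.36-fold, adjusted p = 4.42e-05). Spink5, the inhibitor of Klk5 and Klk7, was not called, at 448 and 400.1 CPM in high and 455 and 151 CPM in low cells (log2 fold change 0.53, SE 0.38, adjusted p = 0.528). Serpinb2, an inhibitor of plasminogen activators, was 17.2-fold lower (adjusted p = 0.00636), and the chemokine Cxcl14 3.18-fold lower (adjusted p = 0.00635). The tight junction gene Ocln was 4.5-fold higher (adjusted p = 0.00402), and Cldn4 missed the threshold (log2 fold change 2.53, SE 0.53, adjusted p = 0.0132) and passed it with the replicate block (log2 fold change 2.58, adjusted p = 0.00345). Krt16, a wound keratin, had 0 UMIs in high cells and 20.4 and 51.9 CPM in low cells, at least 8.79-fold lower (adjusted p = 0.00603).

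Of 9 retinoid genes tested, 6 were not called between the groups and none was lower in Krt79/Defb6-high cells. Crabp2, which delivers retinoic acid to nuclear receptors, stood at 264 and 124 against 38.5 and 18.2 (7.38-fold, adjusted p = 0.00579). Lrat, the enzyme that stores retinol as esters, had 19.1 and 20.1 CPM in high and 0 UMIs in low cells, at least 7.56-fold higher (adjusted p = 0.00373). The high cells of both mice lay above the low cells in both genes, and neither was called when the choosing genes had to take 1% of UMIs. By DESeq2, Crabp2 was not called (adjusted p = 0.145), nor were Itgb4 (0.0205) and Flg2 (0.76) named above. The receptors Rxra and Rarg were not called, with Rxra at 50.9 and 51.8 CPM in high and 56.7 and 56.1 in low cells, and Rarg at 137 and 89.2 in high and 104 and 111 in low cells.

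Outside all lists, the 5 tested genes with the largest rise and the 5 with the largest fall were named by rule. Higher in Krt79/Defb6-high cells were Gm12068, at 95.4 and 66.2 CPM against 0 UMIs (at least 30.8-fold), and Gsdma3, a gasdermin of the follicle, at 66.7 and 34.5 CPM against 0 UMIs (at least 19.2-fold, from a cluster of near-identical copies). Lbhd2 was higher by a ratio of 97.7-fold (exact 95% counting interval 16.8 to 3926) and Inhbb, a subunit of activin B, by 25.6-fold (exact 95% counting interval 8.2 to 129), while 2310046K23Rik stood at 1465 and 1499.5 against 104 and 23.8 CPM (25.2-fold). Lower were Tesc, a calcium-binding protein, by a ratio of 62.5-fold (exact 95% counting interval 11 to 2490.4), and Hpgds, a prostaglandin D synthase, by 44.9-fold (exact 95% counting interval 15.2 to 219). Ndufa4l2, a mitochondrial protein, stood at 9.54 and 8.63 in high and 455 and 383 CPM in low cells (44.9-fold), Sox6, a factor of the SOX family, at 12.7 and 2.88 against 252 and 343 (38.4-fold), and Gadl1, a decarboxylase, at 15.9 and 0 against 247 and 85.5 (20.6-fold). Adjusted p ranged from 2.65e-05 for Ndufa4l2 to 0.00804 for Gadl1 in these 10 genes, and Gadl1 was not called by DESeq2 (adjusted p = 0.194). Dissociation stress genes, which cells induce while skin is digested, took 0.989% and 0.562% of UMIs in high and 0.985% and 0.789% in low cells, and their part in these differences was not tested.

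A second division ran along the basal keratins. Members of each mouse were ranked by their share of Krt5 and Krt14 and cut into 4 bins, from most to least. This order is a description, with no test, since the cells of a mouse are not replicates and Krt5 and Krt14 made it. Col17a1, which played no part in the ranking, stood at 432, 291, 40.4 and 68.2 CPM from bin 1 to bin 4 in mouse 1 and at 566, 335, 98.8 and 90.6 in mouse 2. Krt15 stood at 4779, 2019, 1499 and 2119.6 CPM in mouse 1 and at 5518, 4269.8, 1842 and 1887 in mouse 2. Both genes were highest in bin 1 of both mice and several times lower by bin 3. Sbsn ran the other way, at 1394, 1941, 4512 and 3769 CPM in mouse 1 and 582, 2012, 2116 and 3216 in mouse 2. Klf5 stood at 355, 330.1, 271 and 266 CPM in mouse 1 and at 562, 319, 309.9 and 385 in mouse 2, with the highest value in bin 1 and no common order after it.

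The bins also differed in group, since 7, 7, 13 and 13 cells of bins 1 to 4 in mouse 1, and 4, 7, 9 and 10 in mouse 2, were Krt79/Defb6-high. The ranking was therefore repeated in the Krt79/Defb6-low cells alone, cut into 2 equal parts. There Col17a1 stood at 502 and 129.6 CPM in the parts with more and less Krt5 and Krt14 of mouse 1 and at 519.6 and 222 in mouse 2, and Sbsn at 937 and 4345 in mouse 1 and 1313 and 2059 in mouse 2. Krt10, one of the choosing genes, stood at 3686 and 13975 CPM in mouse 1 and 6103 and 8118 CPM in mouse 2. The direction was the same as over the whole class, with a larger step in mouse 1. The 15 cell cycle genes took 252, 1247, 234 and 149.9 CPM over the 4 bins of mouse 1 and 227, 633, 535 and 117 in mouse 2, with the highest value in bin 2 of both.

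**Figure D3:**
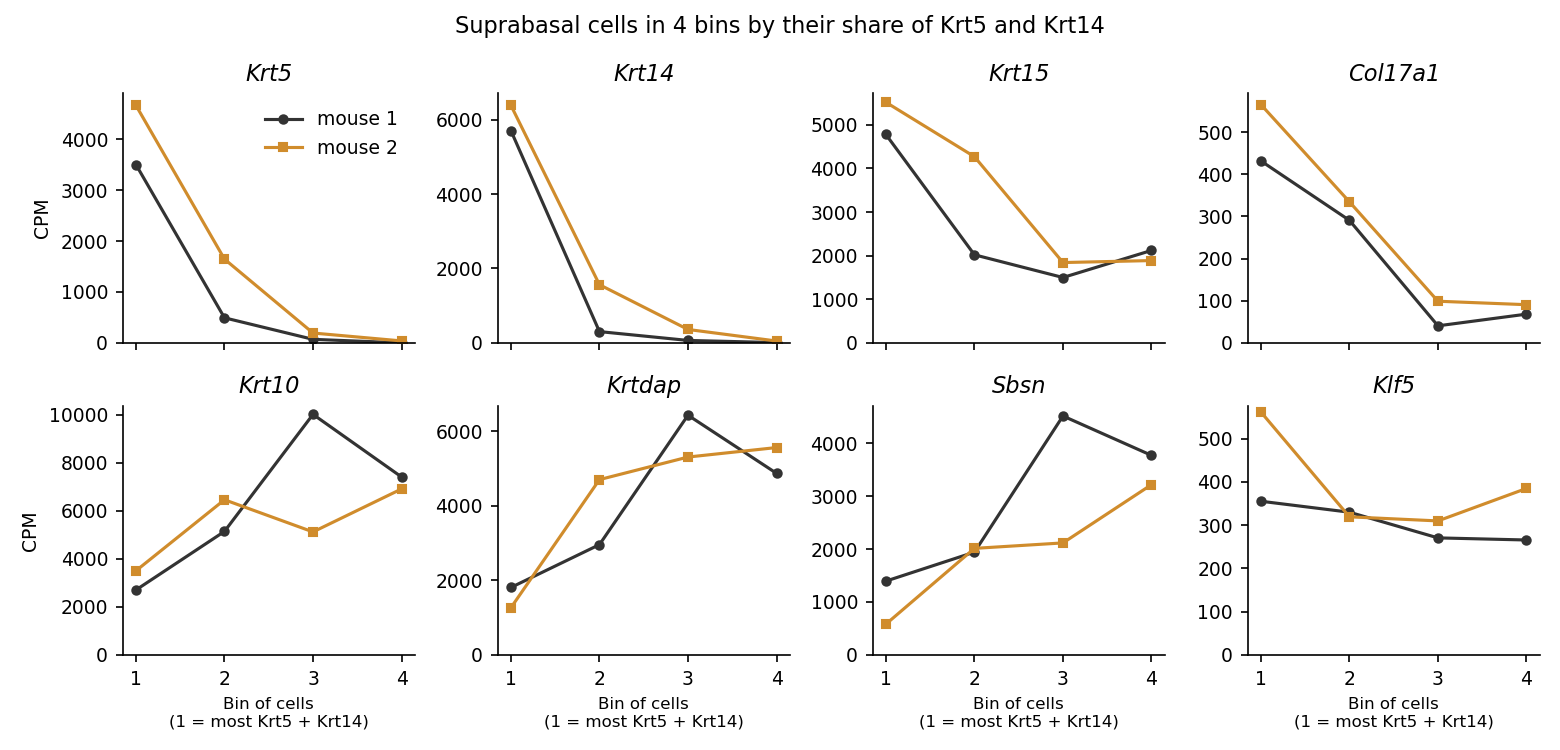
CPM of 8 genes in 4 bins of suprabasal cells, ordered from the most to the least Krt5 and Krt14, with 1 line per mouse. Krt5 and Krt14 made the order; Krt15 and Col17a1 are lower in bins 3 and 4 than in bin 1, Krtdap and Sbsn are lowest in bin 1, and Klf5 shows no common direction past bin 2.

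The whole class was then set against Krt15-high cells. Most desmosome genes, 10 of 17 epidermal transcription factors and the protease inhibitor Spink5 were higher in the suprabasal cells, and the bulge factors Tbx1, Lhx2, Tcf7l1 and Nfib and the chemokine Cxcl14 were lower. How far these genes follow the genes that chose the classes was not tested. Of 9690 genes tested, 614 were higher (6.34%) and 638 lower (6.58%). Lists of keratinocyte differentiation may follow the choosing genes and are given by order alone: 10 of 12 spinous genes, 13 of 14 granular genes with over 3 UMIs and 10 of 12 barrier lipid genes lay above in both mice, against 20.6% of all genes, and 12 of 13 basal genes lay below, against 36.9%. Against Krt5/Krt14-high cells the same counts were 8, 13 and 10 above, against 21.7% of all genes, and 7 basal genes below, against 28.4%. The basal list holds Krt5, Krt14 and Krt15, which chose the comparison classes, so part of its counts was set by that choice. The shares of all genes leave the genes of these lists out. Examples were Sbsn, at 3006 and 1996 CPM in the class and 298 and 122 in Krt15-high cells, and Dmkn, which encodes dermokine, at 2029 and 2145 in the class and 429 and 619 in Krt15-high cells.

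Desmosomes join keratinocytes through their keratin filaments, and 7 of 11 of their genes were higher in the class than in Krt15-high cells, 1 was lower and 3 were not called (median log2 fold change 1.52). The envelope plakins Evpl, at 151 and 144 against 18.1 and 19.3 CPM (log2 fold change 3.12, SE 0.23, adjusted p = 1.65e-05), and Ppl, at 202 and 240.3 against 35.2 and 52.2 (5.66-fold), changed most. Plakophilin Pkp1 was 4.41-fold and desmoplakin (Dsp) 3.41-fold higher, while Dsg2, a cadherin of simple and basal cells, was 4.13-fold lower. Against Krt5/Krt14-high cells, where 444 genes were higher (4.58%) and 435 lower (4.49%), only 2 of the 11 rose and 2 fell. There Evpl was 5.91-fold and Ppl 2.2-fold higher, and Dsg3, the basal desmoglein, stood at 59.5 and 64.1 against 326 and 353 CPM (5.25-fold lower, adjusted p = 2.27e-05). Of 7 tight junction genes, 4 rose against Krt15-high cells and 2 against Krt5/Krt14-high cells, none fell, and Cldn4 and Ocln rose in both, by 23.8-fold and 5.23-fold against Krt15-high cells.

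Of 17 epidermal transcription factors tested, 10 were higher in the class and none was lower against either comparator, with medians of 1.28 and 1.28 on the log2 scale. Grhl1 and Grhl3, factors of barrier formation, were 7.19-fold and 8.66-fold higher than in Krt15-high cells, Zfp750 7.87-fold and Ovol1 7.09-fold higher. Klf5 stood at 304 and 391 CPM in the class, 105 and 179 in Krt15-high cells (log2 fold change 1.44, SE 0.27, adjusted p = 0.00302) and 86.9 and 134 in Krt5/Krt14-high cells (log2 fold change 1.73, SE 0.28, adjusted p = 0.00187). Klf4 was 2.95-fold and 2.81-fold higher, and Gata3 2.29-fold and 4.41-fold higher, in the same order. All 7 of these factors lay above both comparators in both mice, although Zfp750 was not called against Krt5/Krt14-high cells (adjusted p = 0.141).

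Hair follicle factors moved the other way, with 4 of 10 lower and none higher than in Krt15-high cells, and 7 lower and 1 higher, Foxc1, than in Krt5/Krt14-high cells. Tbx1, a bulge factor, stood at 2.65 and 2.83 CPM against 178 and 188 in Krt15-high cells (log2 fold change -5.87, SE 0.30, adjusted p = 2.46e-06). Lhx2, Tcf7l1 and Nfib were 8.16-fold, 6.32-fold and 3.14-fold lower than in Krt15-high cells, and 7.71-fold, 6.17-fold and 2.08-fold lower than in Krt5/Krt14-high cells. Sox9 was not called against Krt15-high cells, at 120.4 and 110.3 against 149 and 144 CPM (log2 fold change -0.21, SE 0.18, adjusted p = 0.482), and was 4.76-fold lower than in Krt5/Krt14-high cells (adjusted p = 3.41e-05). With the limit of the choosing genes at 1% it was lower than in Krt15-high cells as well (log2 fold change -1.56, adjusted p = 0.000893). The class value averages the high and low groups, which differed by more than an order of magnitude.

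Notch signaling drives the step from basal to suprabasal, and 4 of 9 of its genes were higher and 1 lower than in Krt15-high cells. The receptors Notch3, at 66.1 and 77.3 against 11.5 and 13.7 CPM (log2 fold change 2.67, SE 0.24, adjusted p = 4.21e-05), and Notch2 (3.06-fold) rose, as did the targets Nrarp (4.64-fold) and Hes1 (2.13-fold). The ligand Jag2 stood at 3.97 and 16 against 109.7 and 114 CPM (9.32-fold lower, adjusted p = 0.000219). Against Krt5/Krt14-high cells none of the 9 rose and 1, the ligand Jag1, fell. Notch1 was lower there by a log2 fold change of -0.91 and did not pass the size limit (adjusted p = 0.00682).

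Among proteases, inhibitors and defenses, Spink5 stood at 452 and 233 CPM in the class against 1.76 and 0.622 in Krt15-high cells (log2 fold change 8.09, SE 0.53, adjusted p = 1.05e-05) and 2.00 and 6.48 in Krt5/Krt14-high cells. Klk8 was 12.2-fold and 20.7-fold higher. The list of 10 gave 4 higher and 1 lower against Krt15-high cells, and 3 and 1 against Krt5/Krt14-high cells. Of 6 antimicrobial and cytokine genes, 1 rose and 3 fell against Krt15-high cells, where Cxcl14 stood at 131 and 267 against 1655 and 2003 CPM (adjusted p = 4.94e-05), and 1 rose and 1 fell against Krt5/Krt14-high cells. Crabp2 was higher than in both (41.8-fold and 12-fold), in a list of 12 retinoid genes with 1 rise and 1 fall, and 1 rise and 3 falls. Lrat was 7.01-fold and the fatty acid and retinoid carrier Fabp5 4.45-fold lower than in Krt5/Krt14-high cells, as was the wound keratin Krt6a, at 5.29 and 22.6 against 611 and 559.7 CPM, whose reads can be shared with its copy Krt6b. Against Krt5/Krt14-high cells, DESeq2 did not call Crabp2 (adjusted p = 0.036) or Fabp5 (0.0267). Against Krt15-high cells, 5 of 37 called genes named lost their call without 1 library (adjusted p = 0.0123 to 0.0463), namely Cldn4, Gata3, Grhl3, Hes1 and Klf5. Against Krt5/Krt14-high cells, 12 of 34 called genes named lost their call without 1 library (adjusted p = 0.0101 to 0.0679), namely Cldn4, Crabp2, Fabp5, Grhl1, Grhl3, Klf5, Nfib, Ocln, Ovol1, Ppl, Rnf223 and Teddm3.

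The genes with the largest changes outside the lists were partly shared. Skint9 and Skint5, immunoglobulin-like proteins of keratinocytes in a cluster of similar copies, are examples. Skint9 stood at 336 and 205 CPM in the class and 0.44 and 0.622 in Krt15-high cells, and Skint5 at 279 and 231 and 0.881 and 1.87, in the same order. Within the class they parted, with Skint9 at 549.9 and 429 CPM in Krt79/Defb6-high and 184 and 95.3 in low cells (adjusted p = 0.00194), and Skint5 at 118 and 25.9 in high and 394 and 331 in low cells (adjusted p = 0.00369). Ly6g6c stood at 1565 and 948 against 16.3 and 1.87 CPM, Serpinb3b at 112 and 89.5 against 0 and 1.87, and Gsta2, a glutathione transferase, at 72.8 and 42.4 against 0 UMIs (at least 71.2-fold). Gadl1 and Teddm3 were at 0 UMIs in Krt5/Krt14-high cells and at least 61.9-fold and 31.5-fold higher in the class. Against the same cells Skint9 was higher by a ratio of 499.6-fold (exact 95% counting interval 89.2 to 19773), Skint5 by 242-fold (exact 95% counting interval 66.6 to 2003) and Serpinb3b by 191-fold (exact 95% counting interval 33.8 to 7582).

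Lower than in Krt15-high cells were Shisa2, with 0 UMIs in the class (at least 34.4-fold), Fgf5, a growth factor that ends hair growth (45.4-fold), Ggt1 (32.6-fold), Ddit4l, by a ratio of 47.6-fold (exact 95% counting interval 16.1 to 232), and Myl9, a myosin light chain (36.2-fold). Krt15-high cells held 42 of 302 and 19 of 161 cells with at least 0.5% of UMIs in 3 markers of mural cells, against none in the class. Without all cells over 0.5% in a list of another cell type, Myl9 stayed lower, at a log2 fold change of -4.47. Lower than in Krt5/Krt14-high cells were Shisa2, Wfdc18 and Rnase12, each with 0 UMIs in the class and at least 72.3-fold, 45.6-fold and 39-fold lower, Rnf223, by a ratio of 183-fold (exact 95% counting interval 32.4 to 7261), and Pthlh, a parathyroid hormone-like factor, at 3.97 and 6.6 against 988 and 395 CPM. Stress genes took 0.986% and 0.714% of UMIs in the class against 0.568% and 0.561% in Krt15-high and 0.747% and 0.566% in Krt5/Krt14-high cells, and 9 of 9 were not called in either comparison, although 8 of 9 lay above Krt15-high cells in both mice, against 20.6% of all genes. Of 15 cell cycle genes, 1, the mitotic ubiquitin enzyme Ube2c, fell against Krt15-high cells and none was called against Krt5/Krt14-high cells. By order alone, 14 of 15 lay below Krt15-high cells in both mice, against 36.9% of all genes, and 7 of 15 below Krt5/Krt14-high cells, against 28.4%.

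Sox9 and Klf5 are together known as the pair that marks stem cells caught between follicle and epidermal fates, so cells with both were counted. To compare classes of unequal depth, each cell was thinned to 2000 UMIs. In Krt79/Defb6-high cells, Sox9 and Klf5 were found together in 4 of 40 cells of mouse 1 (10%, exact 95% binomial interval 2.79 to 23.7) and in 5 of 30 of mouse 2 (16.7%, 5.64 to 34.7). In Krt79/Defb6-low cells they were found together in 0 of 42 and 0 of 47 cells, with upper limits of 8.41% and 7.55%. Krt5/Krt14-high cells gave 6.57% and 7.87%, Krt15-high cells 2% and 1.24%, and cells rich in fibroblast genes 0.172% and 0.120%. The intervals of Krt5/Krt14-high cells, 3.05% to 12.1% and 3.22% to 15.5%, overlapped those of the Krt79/Defb6-high cells.

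Without thinning, 20 of 40 and 21 of 30 Krt79/Defb6-high cells held both, at medians of 7399 and 11261 UMIs, against 2 of 43 and 4 of 47 low cells at 8884 and 12880. Cells rich in fibroblast genes held both in 1.52% and 2.62%, at medians of 9191 and 12357. They are not shown to lack either gene, with Sox9 in 7.3% and 11.3% and Klf5 in 15.7% and 20.9% of them. The share with both in Krt79/Defb6-high cells lay above that of these cells in both mice. After thinning, the intervals of the high and low groups overlapped. Each gene alone showed the opposite order in the 2 groups, with thinned Sox9 in 35% and 30% of high and 4.76% and 4.26% of low cells, and Klf5 in 27.5% and 30% of high and 52.4% and 57.4% of low cells. Whether both were found together more often than their single rates would give was not tested. A cell with both RNAs is not shown to hold both proteins.

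**Figure D4:**
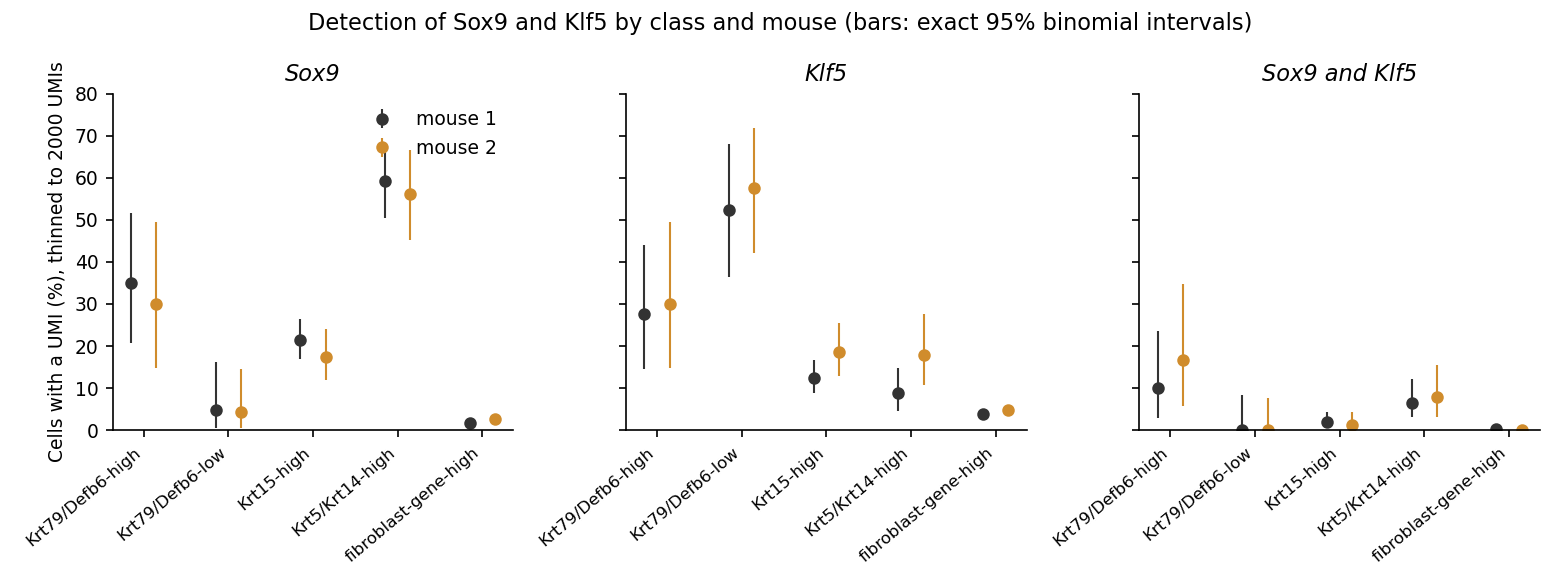
Percent of cells with a UMI of Sox9, of Klf5 and of both, after thinning to 2000 UMIs, in 5 classes and 2 mice, with exact 95% binomial intervals as bars. Sox9 is found in 35% and 30% of Krt79/Defb6-high cells and under 5% of low cells, and both genes together in 10% and 16.7% against 0%.

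The cultures from the same animals were searched with the same rule. Of 262 cultured cells of mouse 1, 14 passed (5.34%, exact 95% binomial interval 2.95 to 8.80), and of 94 of mouse 2, 8 passed (8.51%, 3.75 to 16.1). None of these 22 cells was Krt79/Defb6-high, and none held a UMI of Krt1, Krt77 or Krt79. Most of them were shallow. Over all cultured cells the median was 29323 UMIs in mouse 1 and 23959 in mouse 2, but in the passing cells it was 2572 and 2562, and 12 of 14 and 6 of 8 had under 5000. The absence of these keratins thus rests on few UMIs in most of these cells. They passed through Krtdap, with 271 and 296 UMIs, and Krt10, with 78 and 11. A single B27 cell of mouse 1 held 118 of the Krtdap, 72 of the Krt10, 24 of the 33 Cst6 and all 9 Defb6 UMIs, and 2 B27 cells of mouse 2 held 256 of the Krtdap, 10 of the Krt10 and 14 of the 19 Cst6 UMIs. By hashtag, 5 of the 14 cells in mouse 1 carried more than 1 tag, and 1 of 5 cells from B27, 3 of 113 from BMP and 5 of 92 from Rspo+BMP passed. In mouse 2, 2 of 10 cells from B27, 2 of 6 from Rspo, 1 of 13 from BMP, 2 of 27 from Rspo+BMP and 1 of 21 from Rspo+BMP+RARi passed. Among cells that passed the filters, the atRA+PKCi condition held 2 and 1 and FBS none, so media could not be compared here. The paper analyzed far more cultured cells than these, with atRA+PKCi-treated cells among them.

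In the bulk cultures the class markers could be tested, since these libraries played no part in the choice. The targeted gene comes first: Rxra stood at 149 and 122 CPM in the FBS libraries of wild-type and at 97.2 and 95.7 in those of Rxra cKO, and in atRA+PKCi at 147 and 143 CPM in wild-type against 148 and 145 in Rxra cKO. Counts over the whole gene do not show the loss of floxed exons, so these values check nothing about the label. At an adjusted p under 0.05, 27.2% of 15965 genes rose with atRA+PKCi in wild-type cultures and 26.6% fell. In Rxra cKO 20.8% rose and 22.2% fell. The log2 change was shifted upward in wild-type relative to Rxra cKO for 11.3% and downward for 13.3%. These shares are the background for the counts that follow.

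In wild-type HFSCs, 6 of the 7 class markers fell in atRA+PKCi and 1, Krt79, rose. Krtdap stood at 749 and 968 CPM in the 2 FBS libraries and at 0.802 and 0.982 in atRA+PKCi (log2 fold change -9.90, SE 0.28, adjusted p = 2.33e-08). Krt1 stood at 10.5 and 9.77 against 0.609 and 0.0634 CPM (log2 fold change -4.91, SE 0.42, adjusted p = 1.7e-05), and Cst6 at 28.1 and 36.3 against 0.16 and 0.222 (log2 fold change -7.36, SE 0.28, adjusted p = 1.21e-07). For these 3 genes no FBS library overlapped an atRA+PKCi library. Krt77 fell from 1.5 and 1.31 to 0.0641 and 0.095 CPM, and Defb6 from 0.365 and 0.618 CPM to 0 counts, at least 8.64-fold, both from low levels. Krt79 rose from 0.511 and 0.348 to 16 and 13.9 CPM (log2 fold change 5.10, SE 0.26, adjusted p = 6.97e-07), and Krt15 from 3.65 and 4.75 to 4576 and 4430.4 CPM (log2 fold change 10.07, SE 0.17, adjusted p = 6.16e-09).

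In Rxra cKO HFSCs, 3 of the 7 markers rose in atRA+PKCi, 3 fell and 1, Defb6, was not called. Krt1 rose from 3.02 and 2.88 CPM in FBS to 43.4 and 33.5 in atRA+PKCi (log2 fold change 3.70, SE 0.30, adjusted p = 2.2e-05), and Krt10 from 8.59 and 8.36 to 29.8 and 22.9 (log2 fold change 1.64, SE 0.14, adjusted p = 3.61e-05). In wild-type, Krt10 had gone the other way, from 153 and 127 to 6.09 and 6.53 CPM (log2 fold change -4.47, SE 0.15, adjusted p = 5.81e-08). Krt79 rose in both genotypes, to 12.6 and 8.9 CPM in Rxra cKO (log2 fold change 4.90, SE 0.27, adjusted p = 2.43e-06), and its change was not shown to differ between them, at a difference of 0.20 (SE 0.44, adjusted p = 0.828). Krtdap fell to 88.5 and 82.4 CPM and Cst6 to 8.96 and 7.71 CPM, both well above wild-type atRA+PKCi.

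The change with medium differed between genotypes for 6 of 7 markers. On the log2 scale, wild-type minus Rxra cKO, it differed by -8.61 (SE 0.51, adjusted p = 1.26e-05) for Krt1, -8.26 (SE 0.32, adjusted p = 2.01e-06) for Krtdap and -6.11 (SE 0.21, adjusted p = 1.73e-06) for Krt10. Cst6 differed by -4.84 (SE 0.38, adjusted p = 5.49e-05), and Krt77 by -2.33 (SE 0.63, adjusted p = 0.0279). Defb6 passed the test as well (adjusted p = 0.00722), but with 0 counts in wild-type atRA+PKCi the size of its difference could not be estimated. A negative value means a lower change in wild-type. Krt77 was not called by DESeq2 (adjusted p = 0.0617). It also lost its call in 6 of 8 fits that left out 1 library (adjusted p = 0.054 to 0.0971). The genotypes also differed in FBS alone, where Krt10 stood at 153 and 127 CPM in wild-type and 8.59 and 8.36 in Rxra cKO, and Krt17 at 78.1 and 95.2 in wild-type and 1731 and 1983 in Rxra cKO, and the part of these starting levels in the differences was not tested. Each genotype was represented by the lines of 2 mice.

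**Figure D5:**
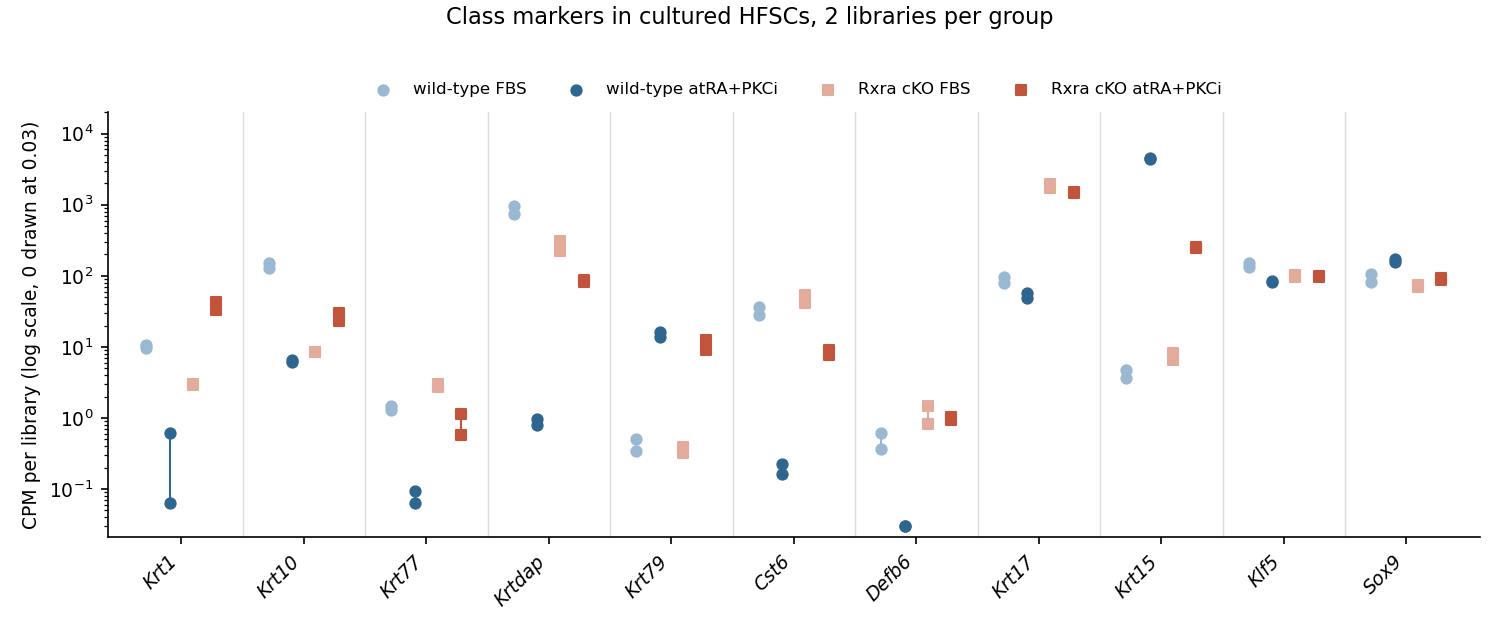
CPM (log scale) of 7 class markers and 4 further genes in 8 bulk libraries of cultured HFSCs, with 1 point per library in 4 groups; 0 is drawn at 0.03. Krt1 and Krt10 are lower in atRA+PKCi than in FBS in wild-type and higher in Rxra cKO, while Krt79 is higher in atRA+PKCi in both genotypes.

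Spinous, granular and barrier lipid genes fell in atRA+PKCi in both genotypes, unlike Krt79, and unlike Krt1 and Krt10 in Rxra cKO. In wild-type atRA+PKCi all 10 spinous genes tested and all 12 barrier lipid genes fell, as did 19 of 20 granular genes (median log2 fold change -8.06, or -7.92 with genes at 0 counts set to their bound), with Ivl not called (log2 fold change -0.26, SE 0.12, adjusted p = 0.0866). In Rxra cKO the counts were 9 of 10, 12 of 12 and 20 of 20, with smaller medians of -1.53, -1.57 and -3.24. The test of the difference was passed by 10 of 10, 12 of 12 and 20 of 20 of these genes, of which only Ivl had the lower change in Rxra cKO, by 0.92 (SE 0.17, adjusted p = 0.00428). Of 18 epidermal transcription factors, 15 fell and 2 rose in wild-type, and 9 fell and 3 rose in Rxra cKO. Klf5 fell from 154 and 132 to 83.4 and 81.9 CPM in wild-type (log2 fold change -0.79, SE 0.08, adjusted p = 5.8e-05) and was not called in Rxra cKO (log2 fold change -0.02, SE 0.08, adjusted p = 0.862), a difference of -0.77 (SE 0.12, adjusted p = 0.00179). Grhl3 differed by -0.76 (SE 0.15, adjusted p = 0.00721).

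Upper follicle genes did not move as one group in culture. Of 8, 2 rose, 5 fell and 1 was not called in wild-type atRA+PKCi, and 2, 3 and 3 in Rxra cKO. Gata6 rose with Krt79 in wild-type, from 1.57 and 1.39 to 2.63 and 2.63 CPM (log2 fold change 0.83, SE 0.21, adjusted p = 0.0102), while Plet1 fell, from 206 and 222 to 44.2 and 40.7 CPM (log2 fold change -2.34, SE 0.10, adjusted p = 2.62e-07). Sox9 rose from 105 and 81.8 to 173 and 156 CPM in wild-type (log2 fold change 0.82, SE 0.11, adjusted p = 0.000304) and differed between genotypes by 0.51 (SE 0.16, adjusted p = 0.0483), and Lrat rose from 0.109 and 0.464 to 1.8 and 3.8 CPM and differed by 2.58 (SE 0.70, adjusted p = 0.0285). The difference for Sox9 lost its call in 7 of 8 fits without 1 library (adjusted p = 0.0563 to 0.177) and that for Lrat in 6 of 8 (adjusted p = 0.0642 to 0.0895). The genes that set the 2 groups of members apart in skin were thus found on both sides of the medium effect.

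That was also seen over all of them. Of the 150 genes higher in Krt79/Defb6-high cells, 135 were tested in culture, where 42 rose (31.1%) and 68 fell (50.4%) in wild-type atRA+PKCi, and 45 rose (33.3%) and 48 fell (35.6%) in Rxra cKO. Of the 65 genes higher in Krt79/Defb6-low cells, 62 were tested, of which 12 rose (19.4%) and 38 fell (61.3%) in wild-type, and 17 rose (27.4%) and 26 fell (41.9%) in Rxra cKO. Both lists thus fell in wild-type more often than the background of 26.6%, with median log2 fold changes of -0.29 and -0.55 against 0.03 over all genes. In wild-type the first list also rose more often than the background of 27.2%, and the second list less often. In Rxra cKO both lists rose more often than the background of 20.8% and fell more often than that of 22.2%. More frequent falls were therefore not particular to wild-type. Whether the 2 lists differ from each other was not tested.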

How the data were processed

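The authors deposited UMI counts per gene and cell for each skin and culture library (10x 3' V3 chemistry, Cell Ranger 7.0.0 per the file headers and 7.0.1 per the labels, mm10), without removal of ambient RNA or doublets. For bulk RNA-seq they deposited estimated counts per gene (Salmon 1.4.0), which were rounded to whole numbers here. ATAC-seq and CUT&RUN files were not used here.

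Cells were filtered and classed by UMI shares, and UMIs of 32285 features were summed per class and mouse. Krt79/Defb6-high cells had at least 0.1% of UMIs in these 2 genes. The sums, and the bulk counts, were compared with edgeR 4.0.16 (R 4.3.3, filterByExpr, TMM, quasi-likelihood test, Benjamini-Hochberg adjustment over all genes), with 2 mice per class and 2 libraries per group, so that p-values measure the spread between these samples. The whole class shared 1 fit with both comparison classes, and the high and low groups shared another fit with the same comparison classes. The 8 bulk libraries, which held 25150162 to 35879630 counts, shared 1 fit. The edgeR comparisons, other than the medium effect in Rxra cKO, were tested on simulated data. Recovery was lowest between the high and low groups. There, 60.8% of genes set to differ by 2 on the log2 scale were recovered, and 7.07% of those set to differ by 1. Recovery was counted at an adjusted p under 0.05 with no limit on size, and with 1 assumed spread. The stricter limits of the skin calls would recover no more of these genes. Genes not called between these groups can therefore still differ. Genes used to choose a class, and differentiation lists against the other keratinocyte classes, were given without a test. Hashtags were read with Seurat 5.3.0 and doublets with Scrublet in scanpy 1.11.5. Class members were kept whether or not marked as doublets.

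Named genes were those of the lists (gate, class markers, differentiation, junctions, factors, retinoid, Notch, proteases, cytokines, cell cycle, stress, other cell types), plus in each in vivo comparison the 5 called genes with the largest rise and the 5 with the largest fall outside them, with at least 50 CPM in the higher class and no overlap between mice. The members and the lists were chosen with earlier results of these data known. Sums of 1 mouse came from the same animal, and their deviations correlated by 0.198, 0.177 and 0.252 over 9580 genes. The labels of the bulk libraries give the same mouse number in both media of a genotype, and the correlations were 0.0668 in wild-type and -0.0188 in Rxra cKO. Alternatives covered the choice limits, doublets, DESeq2 1.42.0, the filter, the threshold, each left-out library and the replicate block. Values of 1 gene are not reported here.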

Additional observations from a re-analysis of the deposited data

Results flagged for a closer look

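The change with medium differed between wild-type and Rxra cKO cultures, by the interaction term in edgeR, for 12 of the genes examined. On the log2 scale, wild-type minus Rxra cKO, the difference was -8.61 for Krt1, -6.11 for Krt10, -2.33 for Krt77, -8.26 for Krtdap and -4.84 for Cst6. For Defb6 the fitted value was -6.66, which depends on the prior count of the model and is no measure of size, since wild-type atRA+PKCi held 0 counts. For Krt1 and Krt10 the 2 genotypes moved in opposite directions. Krt15 differed by 5.00 and Lrat by 2.58, both with the greater rise in wild-type. Sox9 differed by 0.51, Klf5 by -0.77, Grhl3 by -0.76 and Rxra itself by -0.51, where Rxra rose in Rxra cKO and was not called in wild-type. The calls for Krt77, Lrat, Sox9 and Rxra were each lost in 4 to 7 of 8 fits that left out 1 library (adjusted p = 0.054 to 0.177), and those for the other 8 genes in none. The part of the unequal starting levels in FBS was not tested.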

How the results depend on the processing

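Of 532 results for named genes against Krt15-high cells over all alternatives, 519 kept their direction and call, as did 450 of 490 against Krt5/Krt14-high cells and 765 of 915 between Krt79/Defb6-high and low cells; no result of the first 2 comparisons reversed. In the cultures 152, 138 and 125 of 154 did so for wild-type, Rxra cKO and their difference. At an adjusted p under 0.05 alone, 1111 genes were higher and 1102 lower against Krt15-high cells, 823 and 813 against Krt5/Krt14-high cells, and 291 and 190 between the high and low groups. Without a filter on low counts, 995 were lower against Krt15-high cells, 703 higher and 697 lower against Krt5/Krt14-high cells, and 304 and 206 between the groups. With the limit of the choosing genes at 1%, 23 were higher and 13 lower between the groups, Plet1 turned to -6.48 and Cstb to -0.36 on the log2 scale, and neither was called. A further 29 named genes lost their call there, as did Ocln, Crabp2 and Fabp5 against Krt5/Krt14-high cells. The replicate block gave 227 and 131 between the groups. It lost no call of a named gene, and added Klf5 and Cldn4 between the groups and Krt17 (-0.32) and Sox9 (0.32) in Rxra cKO cultures. DESeq2 also missed Wfdc18 against Krt5/Krt14-high cells.

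Leaving out 1 library gave 347 to 624 higher and 345 to 634 lower genes against Krt15-high cells, 190 to 447 and 244 to 437 against Krt5/Krt14-high cells, and 44 to 161 and 14 to 78 between the groups. The last fell to 57 higher and 14 lower without mouse 1 of the high cells, 72 and 16 without mouse 2, and 44 and 23 without mouse 2 of the low cells. Against Krt15-high cells the counts were 381 and 345 without mouse 1 of the suprabasal cells, 347 and 430 without mouse 1 of the Krt15-high cells, and 351 lower without mouse 2 of the suprabasal cells. Against Krt5/Krt14-high cells they were 251 and 244 without mouse 1 of the suprabasal cells, 266 lower without mouse 2, and 190 and 259 without mouse 1 of the Krt5/Krt14-high cells. A class left with 1 mouse is assumed to vary like the others, and the cause was not tested.

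Results that were not called changed sign as well. Spink5 ranged from -0.0985 to 1.54 between the groups, Rxra from -0.0453 to 0.247 in wild-type cultures, Defb6 from -0.560 to 0.257 and Klf5 from -0.0590 to 0.0417 in Rxra cKO, and the difference for Krt79 from -0.0462 to 0.506. Differentiation genes higher in wild-type atRA+PKCi numbered 2, or 1 with DESeq2, and 1 to 2 with 1 library left out, the lower value without the wild-type FBS library of mouse 2. In the main fit, none of these was a spinous, granular or barrier lipid gene. Limits of 1% for fibroblast genes and the removal of cells of other types were chosen after seeing the data. Without those cells, 152 genes were higher and 63 lower between the groups, 558 and 591 against Krt15-high cells, and 459 and 446 against Krt5/Krt14-high cells. The Krt79/Defb6-high cells numbered 40 and 30, and the effect of their number on the calls was not tested.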
